A study of Saccharomyces cerevisiae with 2 samples.

Results

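The genes described here encode 10 factors that travel with RNA polymerase II or assist it during transcript elongation. They were SPT4, SPT5, SPT6, SPT16, ELF1, DST1, PAF1, CTR9, RTF1 and LEO1, taken by standard name from the annotated open reading frames (ORFs), so that they are 10 of 5798 ORFs in the tables. Their 3' ends were measured by 3' READS, a sequencing method whose reads begin at the base to which a poly(A) tail was added, in total RNA of JZY65, a Saccharomyces cerevisiae strain whose RPB4 coding sequence is deleted (genotype delta rpb4). Both samples were biological replicates of this strain, grown in YPD (rich medium) at 30 °C to mid-log phase, and formed 1 group. No parental strain was analysed here, so nothing below measures what the deletion does, and with 2 replicates in 1 group no test was made. The parental background and the marker used for the deletion are not stated in the labels.

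Elongation factors accompany the polymerase from promoter-proximal transcription to the poly(A) site. Spt4 and Spt5 form a clamp-like factor on the polymerase, Spt6 and the FACT subunit Spt16 take nucleosomes apart and rebuild them during transcription, and Dst1 (TFIIS) helps a stalled polymerase to cut its transcript and resume. The Paf1 complex, to which Paf1, Ctr9, Rtf1 and Leo1 belong, is needed for histone modification on transcribed genes and is known for a role in 3' end formation, and Elf1 is a small elongation factor that sits next to Spt4 and Spt5. Rpb4, the missing subunit, is part of the polymerase stalk.

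Reads were taken from the 400 nt that follow each stop codon (the window), and these windows held 27374989 reads over all ORFs in replicate 1 and 24905308 in replicate 2. No read lay inside the RPB4 coding sequence in either replicate. The 400 nt after its stop codon still held 4486 reads in replicate 1 and 4066 in replicate 2. Counts of 0 beside these allow shares of up to 0.0669% and 0.0738% (3 reads of the total). A count of 0 inside an ORF was not particular to RPB4, since SPT4 had none either. Values of the 10 genes are set beside all 4939 ORFs with 100 or more window reads per replicate ("genes used"), and all 10 passed this filter. The 10 windows together held 46042 and 42240 reads, 0.168% and 0.170% of the ORF window reads. PCR copies were counted as reads, so intervals and limits below cover counting error only.

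The factors differed widely in read level. SPT16 had 10842 window reads in replicate 1 and 10350 in replicate 2, which is 405.8 ± 13.8 RPM (SD, n = 2), RPM being the share of all ORF window reads on a scale of 1000000, and DST1 had 10120 and 10607 reads, or 397.8 ± 39.7 RPM. ELF1 followed with 10002 and 8152 reads (346.3 ± 26.9 RPM) and LEO1 with 5951 and 4240 (193.8 ± 33.3 RPM). These 4 genes lay between the 81.5 and 90.2 percentiles of all genes used. A 3' READS library gives a read per RNA end whatever the length of the RNA, so that RPM were compared between genes without division by length. RPM count window reads only and leave out ends inside the ORF. Such reads numbered 691 and 748 in SPT6 and 180 and 160 in SPT5.

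Genes of the other factors were read at or below moderate levels. SPT5 had 2730 and 2588 reads (101.8 ± 2.96 RPM), SPT6 had 2444 and 2744 (99.7 ± 14.8 RPM) and SPT4 had 1810 and 1727 (67.7 ± 2.28 RPM). The lowest were PAF1 with 1037 and 847 reads (35.9 ± 2.74 RPM), CTR9 with 820 and 745 (29.9 ± 0.0290 RPM) and RTF1 with 286 and 240 (10.04 ± 0.573 RPM). All 3 lay below the median of the other 4929 genes, 52.9 RPM, and RTF1 stood at the 7.77 percentile. In all, 7 of the 10 genes lay above the median of all genes used, where 50.0% of genes lie by construction. Genes of the Paf1 complex spanned much of this range. CDC73, the gene of the remaining subunit, had 325.6 ± 2.87 RPM, 32.4 times the value of RTF1. In the order of the 10 genes the replicate ranges of neighbours overlapped for SPT16 and DST1 and for SPT5 and SPT6, and for none of the other 7 pairs. In a bulk culture, fewer cells carrying an RNA and less RNA per cell cannot be told apart.

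**Figure D1:**
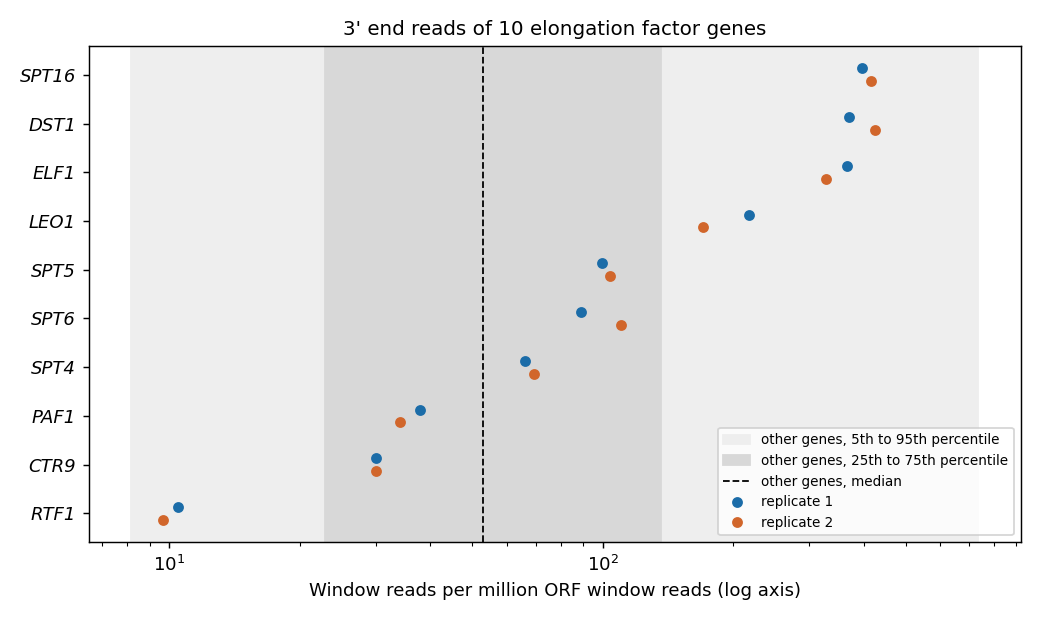
Window RPM (log axis) of the 10 elongation factor genes in replicate 1 and replicate 2. Grey bands show the middle 90% and the middle 50% of the 4929 other genes and the dashed line their median of 52.9. SPT16, DST1, ELF1 and LEO1 lie to the right of the dark band, and PAF1, CTR9 and RTF1 lie left of the median.

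The position of the 3' ends was summarised as the mean endpoint, the read-weighted mean distance of a gene's poly(A) sites from its stop codon. As a group the 10 genes had a median of 125.6 nt (124.3 nt in replicate 1 and 127.0 nt in replicate 2), beside 122.8 nt for the other genes used, and 6 of 10 lay beyond the median of all genes used, against 50.0% of genes. This median hides a wide spread, from 66.7 nt in LEO1 to 253.0 nt in DST1. Under 100 nt lay 3 genes (ELF1, RTF1 and LEO1), beside 32.2% of all genes used, and over 200 nt lay 2 (SPT5 and DST1), beside 16.0%. Only the neighbours PAF1 and CTR9 had overlapping replicate ranges in the order of endpoints, among 9 neighbouring pairs.

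**Figure D2:**
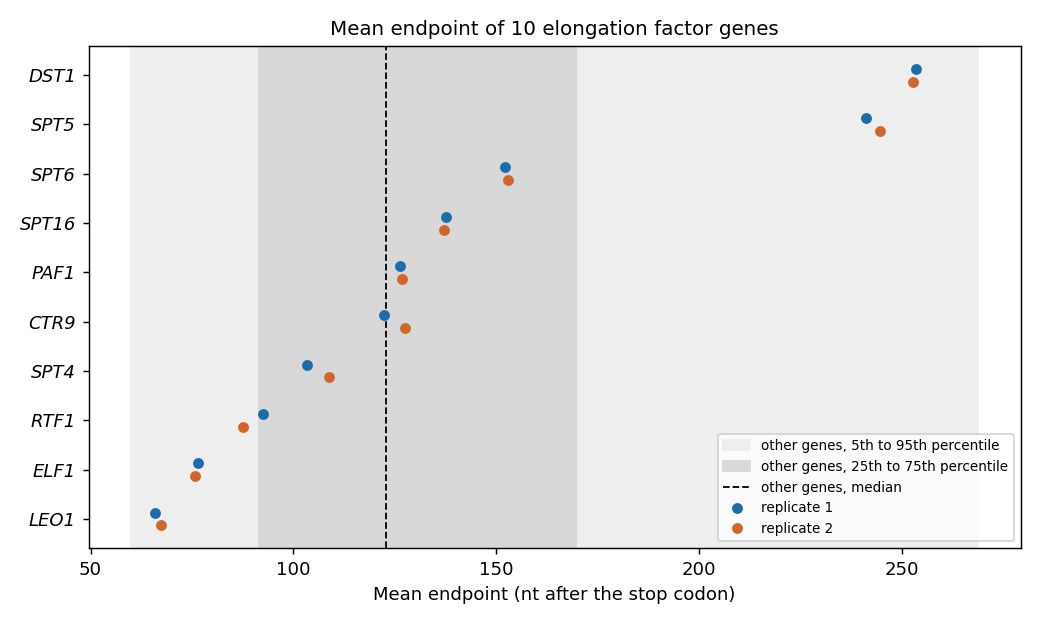
Mean endpoint, in nt after the stop codon, of the 10 elongation factor genes in replicate 1 and replicate 2. Grey bands show the middle 90% and the middle 50% of the other genes used and the dashed line their median of 122.8 nt. DST1 and SPT5 lie far to the right of the dark band, and ELF1 and LEO1 to its left. RTF1 lies at its left edge, inside it in replicate 1 (92.6 nt) and left of it in replicate 2 (87.6 nt).

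SPT4 and SPT5 encode the partners of a single complex and ended far apart. SPT4 (YGR063C, chromosome VII, 617516 to 617824, minus strand) had a mean endpoint of 106.1 nt ± 3.85 (SD, n = 2) and used 2 main zones. The zone from 47 to 53 nt held 32.1% of its window reads in replicate 1 and 25.2% in replicate 2, and the zone from 121 to 132 nt held 55.9% and 65.3%. The proximal zone was thus the smaller in both replicates. Its most used position was 121 nt in replicate 1 (26.4% of reads, Wilson 95% interval 24.4 to 28.4) and 132 nt in replicate 2 (29.0%, 26.9 to 31.2), where position 132 had held 18.2% in replicate 1. SPT5 (YML010W, chromosome XIII, 247677 to 250868, plus strand) ended at 242.7 nt ± 2.38 (SD, n = 2), at the 91.4 percentile. A zone from 244 to 278 nt held 75.3% and 80.8% of its reads, and a minor zone from 103 to 111 nt held 9.27% and 6.68%. SPT5 likewise changed its leading position between replicates, from a close pair of sites. In replicate 1 position 278 led with 19.1% of reads and 272 had 18.2%, and in replicate 2 position 272 led with 27.2% and 278 had 19.4%.

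ELF1 (YKL160W, chromosome XI, 153269 to 153706, plus strand) ended close to its stop codon and in a single zone. Its mean endpoint was 76.2 nt ± 0.463 (SD, n = 2), and positions 68 to 93 nt held 96.7% and 98.1% of its reads. In replicate 1 the 4 main sites at 68, 72, 76 and 85 nt held 33.2%, 14.2%, 26.3% and 16.3% of reads, and in replicate 2 they held 33.7%, 14.4%, 25.3% and 15.8%. Replicates thus gave nearly the same division of reads among these sites, and only 3.26% of reads would have to move to turn the profile of replicate 2 into that of replicate 1. In the 200 genes with the most similar read numbers the median of this measure was 7.11%.

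DST1 (YGL043W, chromosome VII, 417483 to 418412, plus strand) had the most distal 3' ends of the 10 genes, with a mean endpoint of 253.0 nt ± 0.480 (SD, n = 2), at the 93.2 percentile. A pair of sites at 222 and 226 nt led its profile, with 37.7% and 19.5% of reads in replicate 1 and 35.8% and 20.4% in replicate 2. Beyond 300 nt lay 20.1% and 20.2% of its reads, with sites between 336 and 346 nt holding 15.6% and 14.5%. It was the only one of the 10 genes with over 20% of reads that far out, beside 6.62% of all genes used. Ends past 400 nt lie outside the measured window, so that these values bound the DST1 endpoint from below if longer RNAs exist. Counting positions 1 to 300 alone gave 231.2 nt.

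SPT6 and SPT16, of the histone chaperones, both spread their ends over several zones. SPT6 (YGR116W, chromosome VII, 720409 to 724764, plus strand) had a mean endpoint of 152.5 nt ± 0.481 (SD, n = 2) that fell between its 2 main zones. Positions 187 to 191 nt held 47.5% and 47.9% of its reads, and positions 91 to 106 nt held 35.02% and 31.41%. SPT16 (YGL207W, chromosome VII, 98969 to 102076, plus strand) ended at 137.4 nt ± 0.461 (SD, n = 2), with 56.7% and 57.1% of its reads between 119 and 146 nt, 17.4% and 17.4% between 88 and 97 nt, and 3.33% and 3.12% at 252 nt. Its leading position, 129 nt, took 19.6% and 19.5% of reads, the lowest mean share of the 10 genes, with a replicate range that overlapped that of SPT5.

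The number of sites in use is given as an effective number, calculated from the Shannon entropy of a gene's profile, which equals the number of positions if all were used alike. SPT16 had 22.3 ± 0.709 effective positions (SD, n = 2), at the 98.9 percentile of all genes used. SPT5 had 13.3 ± 1.99, SPT4 11.2 ± 2.17, DST1 11.2 ± 0.473 and SPT6 9.75 ± 0.614, and these 5 genes were the ones above the median of all genes used (50.0% by construction). The replicate ranges of SPT5, SPT4 and DST1 overlapped in neighbouring pairs. The median of the 10 genes was 7.69, beside 8.46 for the other genes used.

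The 4 Paf1 complex genes among the 10 had the lowest effective numbers of positions. PAF1 (YBR279W, chromosome II, 761257 to 762594, plus strand) ended at 126.4 nt ± 0.298 (SD, n = 2) and put 86.0% and 90.1% of its reads on positions 118 to 125 nt. CTR9 (YOL145C, chromosome XV, 49555 to 52788, minus strand) ended at 124.9 nt ± 3.60 and put 72.7% (Wilson 95% interval 69.5 to 75.6) and 64.6% (61.1 to 67.9) of its reads on position 115 alone. RTF1 (YGL244W, chromosome VII, 41498 to 43174, plus strand) ended at 90.1 nt ± 3.48, with 69.2% (63.7 to 74.3) and 77.9% (72.3 to 82.7) of its reads on position 88. LEO1 (YOR123C, chromosome XV, 553176 to 554570, minus strand) ended at 66.7 nt ± 1.02, with 46.1% and 46.5% of reads on position 60 and 97.8% and 97.0% between 60 and 76 nt. CTR9 and RTF1 were the 2 of 10 genes with more than 50% of reads on their leading position, beside 19.2% of all genes used. Effective numbers were 5.35 ± 0.0217 in LEO1, 4.67 ± 0.518 in PAF1, 3.45 ± 0.366 in CTR9 and 2.37 ± 0.347 in RTF1 (SD, n = 2). CDC73 had 12.2 ± 0.741. ELF1, outside the complex, came next above LEO1 with 5.63 ± 0.148. Among the 10, RTF1, CTR9 and PAF1, in that order, were the genes with the fewest reads.

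Single sites in these lightly read genes differed between replicates. Sites in genes with more reads also did, such as LEO1 position 62 (5.39% and 2.59%) and DST1 position 218 (1.38% and 2.97%). CTR9 had 5 reads (0.610%) at position 160 in replicate 1 and 71 reads (9.53%) in replicate 2, and this site ranked behind 115 and 139 nt there. PAF1 had 38 reads (3.66%) at position 143 in replicate 1 and 1 read (0.118%) in replicate 2. RTF1 had 8 reads at position 266 in replicate 1 and 0 in replicate 2, where its mean endpoints were 92.6 nt in replicate 1 and 87.6 nt in replicate 2. No molecular identifiers were counted, so it is unknown how many RNA molecules stand behind each of these sites.

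**Figure D3:**
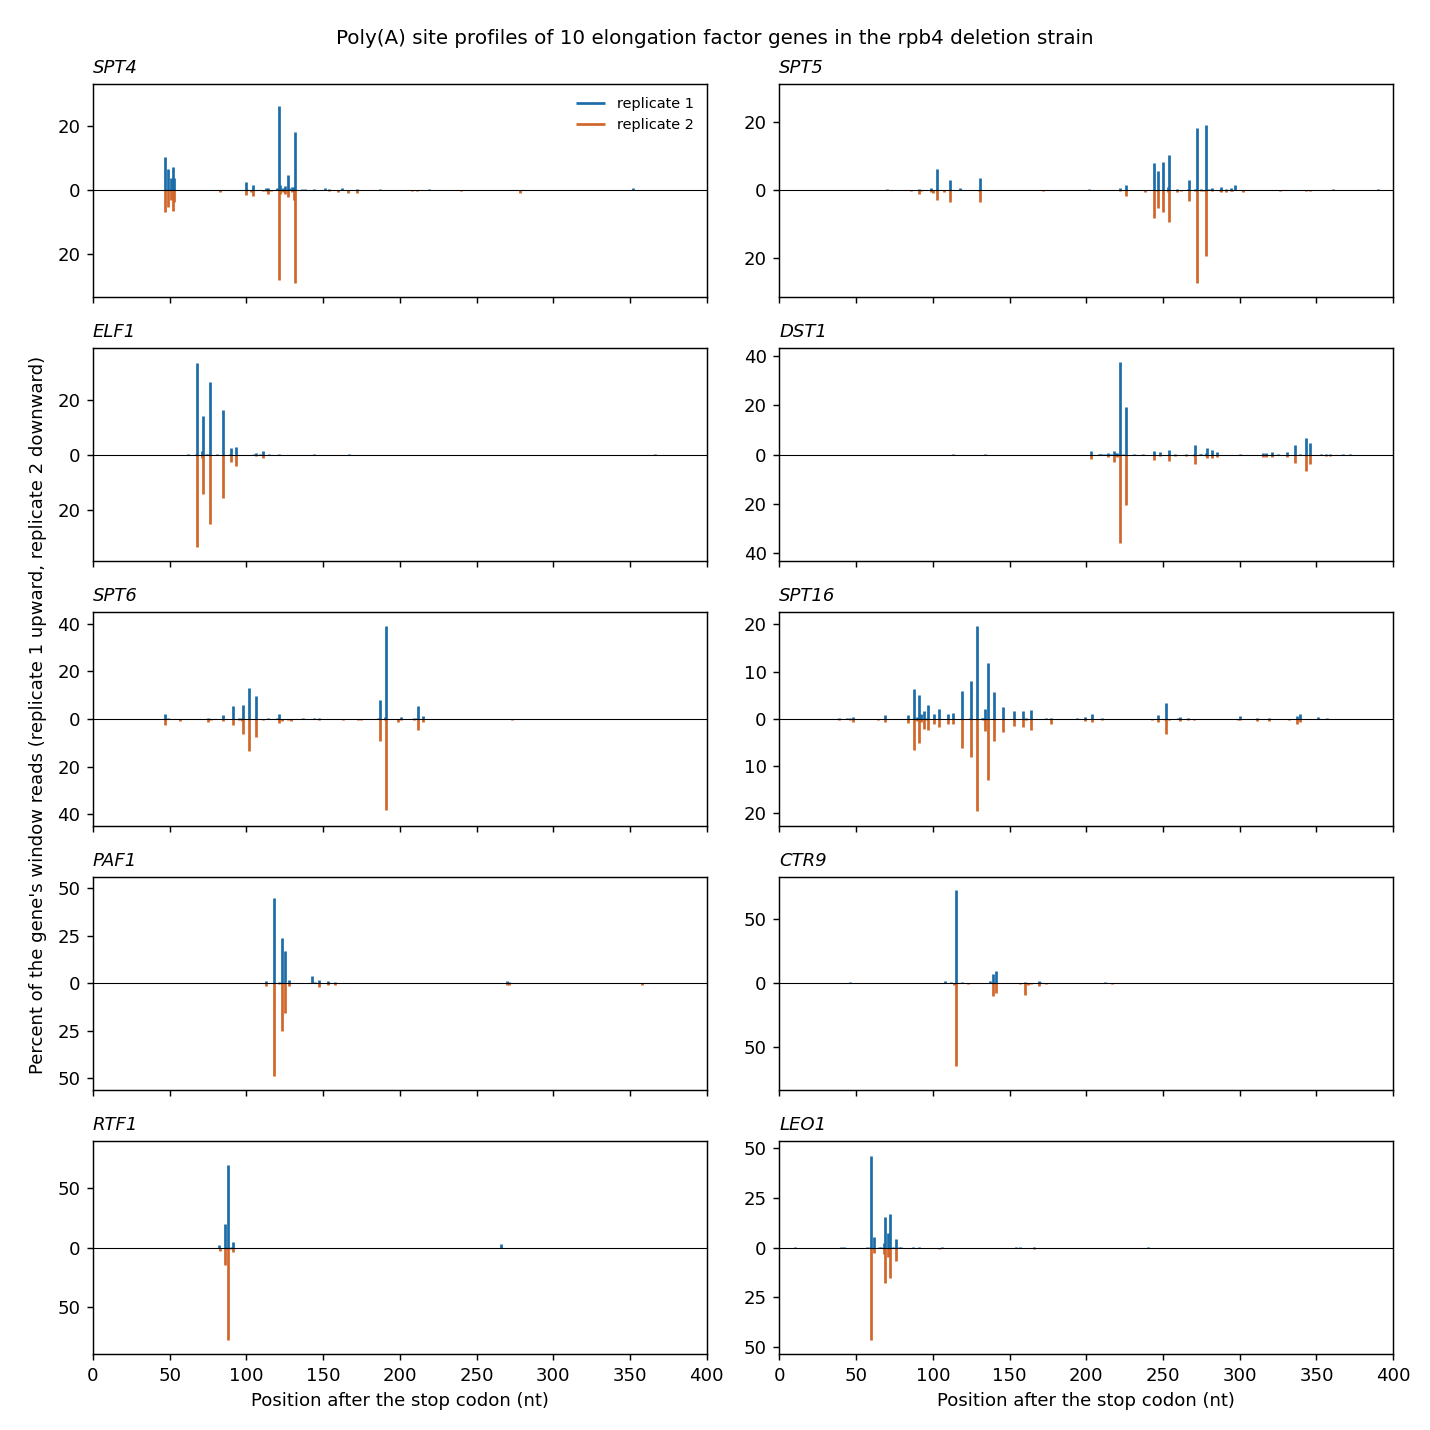
Percent of each gene's window reads at each position from 1 to 400 nt after the stop codon, for the 10 elongation factor genes. Replicate 1 points upward and replicate 2 downward, and the vertical scale differs between genes. By the summed reads of both replicates, ELF1, RTF1 and LEO1 each have a single zone and PAF1 has 2. SPT4, SPT5, SPT6, SPT16, DST1 and CTR9 have 3 or 4. The CTR9 zone at 160 nt had 5 reads in replicate 1 and 71 in replicate 2.

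Replicates agreed on the leading position in 8 of the 10 genes, beside 83.8% of all genes used, and SPT4 and SPT5 were the exceptions described above. Between replicates the mean endpoint of the 10 genes moved by a median of 1.06 nt, beside 2.03 nt in the other genes used, and by at most 5.44 nt, in SPT4. The share of reads placed differently was a median of 9.06% in the 10 genes, beside 15.5% in the other genes. Median reads per window over both replicates were 5253 in the 10 genes and 2756 in the other genes. SPT4 was the gene with the largest share, 18.98%, where the 200 genes with the most similar read numbers had a median of 14.3%.

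Reads inside the coding sequence set SPT6 apart from the other 9 genes. It had 691 such reads in replicate 1 and 748 in replicate 2, which is 22.0% (Wilson 95% interval 20.6 to 23.5) and 21.4% (20.1 to 22.8) of its ORF and window reads. These reads lay at 49 and 32 positions, of which 33 and 22 held more than 5 reads on the scale of the tables. In all, 361 of the 4939 genes used had a share at least as large, SPT6 included. The ORF of SPT6 lay at the 97.4 percentile of length among all genes used, and it had 158.6 and 171.7 reads per kb, at the 93.2 percentile. A part of ORF length in the share was not tested.

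CTR9 followed with 69 and 53 reads inside the ORF (7.76% and 6.64%), SPT5 with 180 and 160 (6.19% and 5.82%) and RTF1 with 18 and 12 (5.92% and 4.76%). With SPT6 these were the 4 of 10 genes whose mean share exceeded 5%, beside 25.9% of all genes used. RTF1 lay below 5% in replicate 2, and its interval there ran from 2.74 to 8.14%. The other genes had smaller shares. PAF1 had 26 and 22 (2.45% and 2.53%) and SPT16 182 and 206 (1.65% and 1.95%). By count SPT16 had more such reads than SPT5, with a mean of 62.4 per kb, at the 81.3 percentile. Its smaller share stood beside 10842 and 10350 window reads. LEO1 had 10 and 12 (0.168% and 0.282%), ELF1 20 and 9 (0.200% and 0.110%) and DST1 15 and 6 (0.148% and 0.0565%). SPT4, the shortest ORF of the 10 at 309 nt, had none, 0 of 1810 and 0 of 1727 reads, with Wilson upper limits of 0.212% and 0.222% (a limit of 3 reads gives 0.166% and 0.174%).

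**Figure D4:**
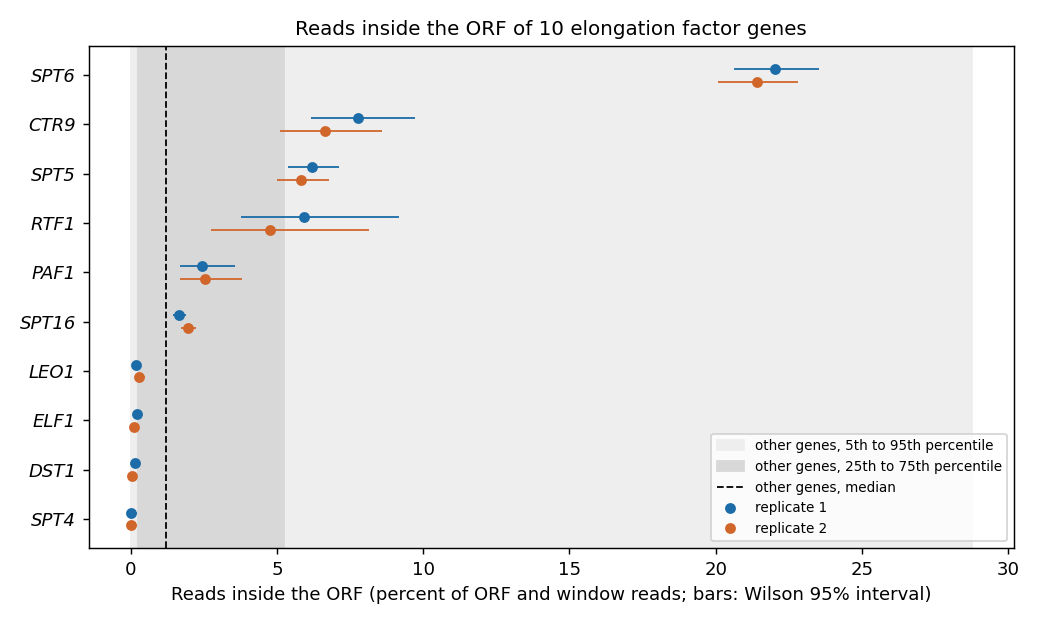
Reads inside the ORF as a percent of ORF and window reads for the 10 elongation factor genes in replicate 1 and replicate 2, with Wilson 95% intervals as bars. Grey bands show the middle 90% and the middle 50% of the other genes used and the dashed line their median of 1.19%. SPT6, at 22.0% and 21.4%, stands apart from the next gene, CTR9, at 7.76% and 6.64%.

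The downstream neighbours were then set beside the 3' ends. Facing 5 of the 10 genes was a convergent ORF, read on the opposite strand, that was itself among the genes used. In 4 of these 5 pairs the mean endpoints passed each other, so that RNAs of mean length overlap on opposite strands, beside 76.2% of 1003 convergent pairs in the genome. CTR9 and PSF3, of the GINS replication complex, have 106 nt between their stop codons, and their mean endpoints passed each other by 92.1 nt ± 0.550 (SD, n = 2). SPT6 and the uncharacterised ORF YGR117C passed by 119.6 nt ± 0.223, ELF1 and RCN1, of calcineurin regulation, by 116.2 nt ± 2.73, and PAF1 and SAF1, of an F-box protein, by 83.1 nt ± 0.565. SPT16 and CHC1, of clathrin heavy chain, lie 466 nt apart, and their mean endpoints fell short of each other by a gap that the overlap measure gives as -50.95 nt ± 1.504.

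CTR9 was the 1 gene of these 5 whose leading position lay inside the coding sequence of its neighbour, opposite PSF3, beside 22.4% of 2006 convergent genes. Nearly all CTR9 reads lay there, 99.4% in replicate 1 and 99.9% in replicate 2. In the ELF1 and RCN1 pair the reverse held, since 1.95% and 1.20% of ELF1 reads reached into RCN1 but 63.1% and 63.5% of RCN1 reads reached past the stop codon of ELF1. The tables kept the strands apart in these pairs. At the base of the leading ELF1 site, with 3316 and 2750 ELF1 reads, RCN1 had 0 reads in both replicates, and PSF3 had 7 and 0 reads inside its ORF where CTR9 had 596 and 481 at position 115 alone.

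**Figure D5:**
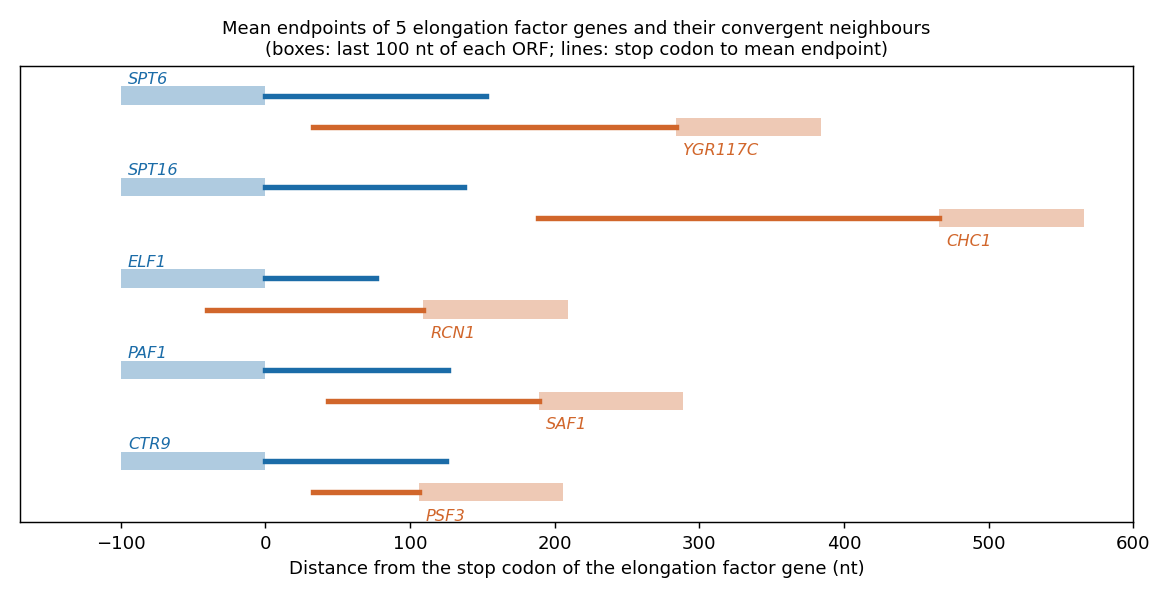
Mean endpoints of 5 elongation factor genes (blue, pointing right) and of their convergent neighbours (orange, pointing left), as distance in nt from the stop codon of the elongation factor gene. Boxes are the last 100 nt of each ORF and lines run from the stop codon to the mean endpoint over both replicates. All lines but those of SPT16 and CHC1 overlap, and the CTR9 line ends inside the PSF3 box.

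Tandem neighbours could add reads to a window, and 4 of the 10 windows overlapped an annotated feature on the same strand (SPT4, SPT5, RTF1 and LEO1), beside 26.5% of all genes used. The reads concerned were few. COX18, of mitochondrial membrane insertion, begins 237 nt after SPT4, and 14 and 18 of the SPT4 reads lay at or beyond its start. TAD1, of tRNA deamination, begins 132 nt after RTF1, and the 8 RTF1 reads of replicate 1 at position 266 were the only ones inside it. No LEO1 read lay in PFY1, the profilin gene, and no SPT5 read lay in the first 43 nt, where the dubious ORF YML009W-B overlaps the window.

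A wider set of genes was described in the same way. A list of 34 genes held the Spt6 partner SPN1, the FACT partner POB3, CDC73, kinases of the polymerase tail, chromatin factors of transcribed genes, and the THO and Elongator complexes. TFG1, RPB9, RAD26 and DEF1, outside these classes, were also on this list. It had 31 genes with enough reads, 16 of them beyond the median of all genes used (50.0% of genes by construction), and a median endpoint of 122.9 nt (123.5 nt in replicate 1 and 123.3 nt in replicate 2). HPR1, DOT1 and BUR2 had fewer than 100 reads in a replicate. Leading positions were shared between replicates in 28 of the 31 genes, beside 83.8% of all genes used. POB3 ended at 76.0 nt ± 1.93 (SD, n = 2) with 1024 and 1103 reads, closer to the stop codon than its partner SPT16 at 137.4 nt, and its window overlaps a feature on the same strand. SPN1 ended at 93.8 nt ± 0.170 with 1425 and 1674 reads, beside 152.5 nt in SPT6. CDC73, with 8859 and 8161 reads, ended at 253.8 nt ± 0.654, so that the 5 Paf1 complex genes ran from 66.7 to 253.8 nt. The shortest of the 31 were CTK2, of a polymerase tail kinase complex (49.1 nt ± 1.24, SD, n = 2), and KIN28, of the TFIIH kinase (51.1 nt ± 0.953), whose window overlaps a feature on the same strand. The longest were CDC73 and SPT2, of a chromatin factor (269.1 nt ± 0.666).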

How the data were processed

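The authors' deposited signal values are reads inside each ORF and in its 400 nt window, multiplied by a factor. There is 1 factor per library (0.858 and 0.940), as the values show. The deposited percent values of positions were read as relative to the highest position in the same gene's window. Reads were mapped with Bowtie, per the submitters' processing notes, which as used here give no version, settings or genome build. Each percent was multiplied by the deposited value of the gene's highest position and divided by the library's factor, which gave whole reads back. In genes with at most 2000 reads at the highest position, 99.998% and 99.995% of positions were within 0.1 of a whole number. In the 10 genes, of which 4 and 3 exceed that limit, 88.3% of 409 and 86.6% of 357 positions were within 0.1, the largest deviation was 0.185 and 0.188 reads, and rounded positions summed to the window totals in all 10. No count test was run, since there is 1 group. Coordinates are the files' own and equal those of assembly R64 for all 10 genes. Python 3.11.15, numpy 2.4.6 and pandas 2.3.3 were used. Zones join positions with at least 2% of the summed reads of both replicates that lie at most 15 nt apart. A position can thus lie below 2% in a single replicate. The rule was set after the profiles were seen. The mean endpoint was tested on simulated profiles. The members and lists were chosen with earlier results of these data known. All 10 genes are named, and of the wider list CDC73, POB3, SPN1 and the 2 shortest and 2 longest used genes, with genes under 100 reads added afterwards. The strand check, read-matched genes and convergent pairs were also added afterwards. No genome sequence was used here, so motifs and A-rich positions were not analysed here.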

Additional observations from a re-analysis of the deposited data

How the results depend on the processing

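Depth limits what RTF1, CTR9 and PAF1 show, and 3' ends beyond 400 nt are not measured. No paired analysis was possible because there is 1 group. Of 38 recomputed values, 29 stayed within the replicate SD or within 1.5 times a count. Leaving out a replicate could not move the median endpoint or the median leading share beyond that SD. Both lay midway between the values of the replicates. With positions 1 to 300 the median leading share of the 10 genes was 42.3% and the median effective number 6.18. The whole window gave 37.6% and 7.69. The share cannot fall by construction, since all leading positions lay within 300 nt, but this does not hold for the effective number. DST1 had 20.1% and 20.2% of its reads beyond 300 nt, and SPT16 came next with 2.95% and 2.93%. Leaving out a replicate gave median effective numbers of 7.53 to 7.59, and summing the replicates gave 7.87. Without SPT4, SPT5, RTF1 and LEO1, whose windows overlap same-strand features, the median endpoint was 131.9 nt, against 125.6 nt, and 2 genes, CTR9 and SPT6, instead of 4 exceeded 5% of reads inside the ORF, by construction of the smaller list. Counting all reads within 10 nt of the leading position gave a median share of 65.8%, and SPT4 alone then had different leading positions. Between 6 and 10 of the 10 genes kept their place in the order of levels without a replicate, where SPT16 and DST1, and SPT5 and SPT6, exchanged places. With no filter on reads 5 of 10 genes lay beyond the median, against 6. Leaving out positions before A-rich sequence was not run, since it needs a genome.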
